A study of Mus musculus with 27 samples.

Results

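The 8 genes described here set the entry of a cell into the division cycle and were followed in mouse kidney across warm ischemia times. They are the D cyclins Ccnd1, Ccnd2 and Ccnd3, their kinases Cdk4 and Cdk6, the transcription factor Myc, and the kinase inhibitors Cdkn1b and Cdkn2c. They were chosen by symbol, and all 8 were among the 19392 genes in the expression table. Of the inhibitors, only Cdkn2c (p18) belongs to the INK4 family. Cdkn1b (p27) belongs to the CIP/KIP family, so the pair is called inhibitors here.

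The kidneys came from C57BL/6 mice with ischemia times of 0, 16, 18, 20, 22, 24, 26, 28 or 30 min, 3 mice at each time and 27 in all. In the model the right kidney was removed and the left renal pedicle was clamped for the stated time. The left kidney was taken 24 h later. The 0 min group is titled sham, and its operation is not described apart from the model. Whether its mice had also lost the right kidney is therefore not certain. If they had not, comparisons with 0 min hold the nephrectomy as well as the ischemia. No kidney labelled as from an unoperated mouse was analysed here. The labels gave neither age nor sex. The question put to these samples was how the renal transcriptome changes as warm ischemia lengthens.

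D cyclins accumulate when a resting cell receives growth signals, and they bind and activate CDK4 or CDK6. The active kinases phosphorylate the retinoblastoma protein and its relatives, which releases E2F factors to switch on the genes of DNA replication. INK4 proteins bind CDK4 and CDK6 and keep them from the D cyclins. CIP/KIP proteins inhibit mainly the cyclin E and CDK2 complexes, and MYC, induced early by growth signals, drives genes of ribosome production and biosynthesis. Tubular epithelial cells of the kidney rarely divide, and they can re-enter the cycle after injury.

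The unit of level is FPKM, a fragment count divided by transcript length and library size, so levels are per length and can be compared between genes. Differences between times are log2 fold changes from limma on quantile-normalized log2(FPKM + 1), a scale that understates the change of genes at low level. A gene is said to have risen or fallen when the Benjamini-Hochberg adjusted p was under 0.05, and it is called a DEG when the log2 fold change was also above 1 in size. Of the 19392 genes, 18188 were above 0 FPKM in at least 3 kidneys and were tested, all 8 members among them. Summed over genes, the 27 kidneys held 512500 to 554000 FPKM. Sequencing depth is not known from such values, and no counting error can be given.

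All 8 members were detected in every kidney. Ccnd1, Ccnd3 and Cdk4 were abundant, with medians over the 27 kidneys of 67.1, 79.6 and 82.4 FPKM. Ccnd2 and Cdk6 were low, with medians of 3.15 and 4.05 FPKM. The widest range belonged to Myc, whose highest kidney (35.9 FPKM) stood 11.1 times above its lowest (3.24 FPKM), and the narrowest to Cdkn1b, at 1.46 times.

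Against the 0 min group, the members changed in 46 of 64 gene-by-time comparisons. At 16 min 4 of 8 members changed, where 19% of all tested genes did. In the 18 min group the count was 6 (background 27.8%), in the 20 min group 5 (22.8%), in the 22 min group 6 (28.8%), in the 24 min group 7 (28.3%) and in the 26 min group 7 (30.1%). It was 6 in the 28 min group, against 48.2% of all genes, and 5 in the 30 min group, against 52.3%. These 8 comparisons share the same 3 sham kidneys, so a low or high value there enters all of them. Only 7 of the 64 were DEGs. They were Cdkn2c at 18 min, where 3.06% of genes were DEGs, Myc at 26 min (3.77%), Cdk4, Cdk6 and Myc at 28 min (8.48%), and Cdk6 and Myc at 30 min (10.7%).

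**Figure D1:**
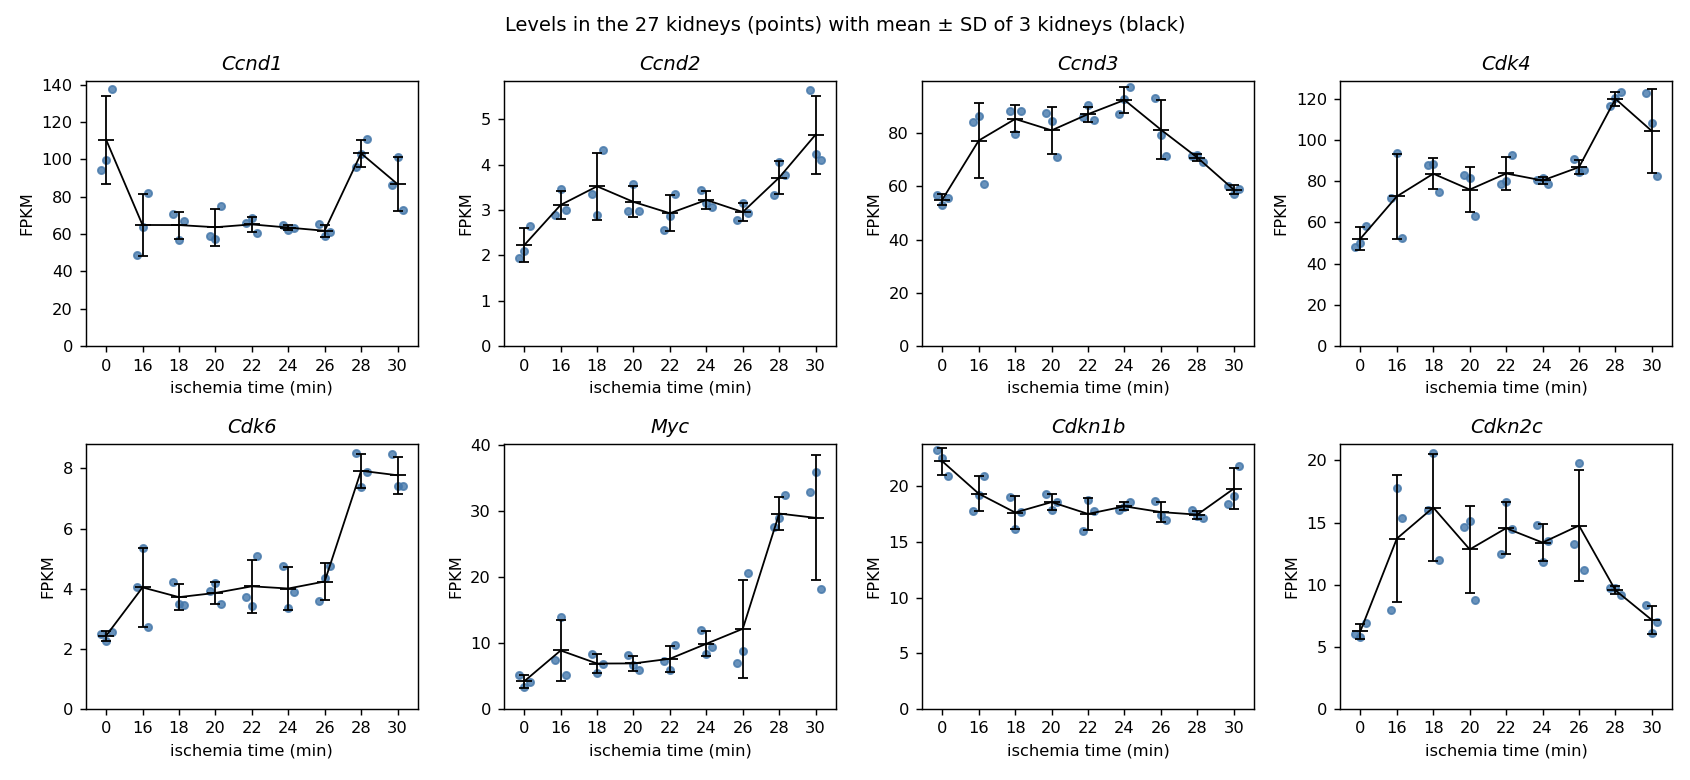
Level of each member (vertical axis, FPKM, starting at 0) against ischemia time (horizontal axis, min, evenly spaced categories), with 1 point per kidney and the mean ± SD of 3 kidneys in black. Ccnd1 was high at 0 min, low from 16 to 26 min and high again at 28 min, Ccnd3 and Cdkn2c had their highest means between 16 and 26 min, and Cdk4, Cdk6 and Myc stepped up between 26 and 28 min.

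**Figure D2:**
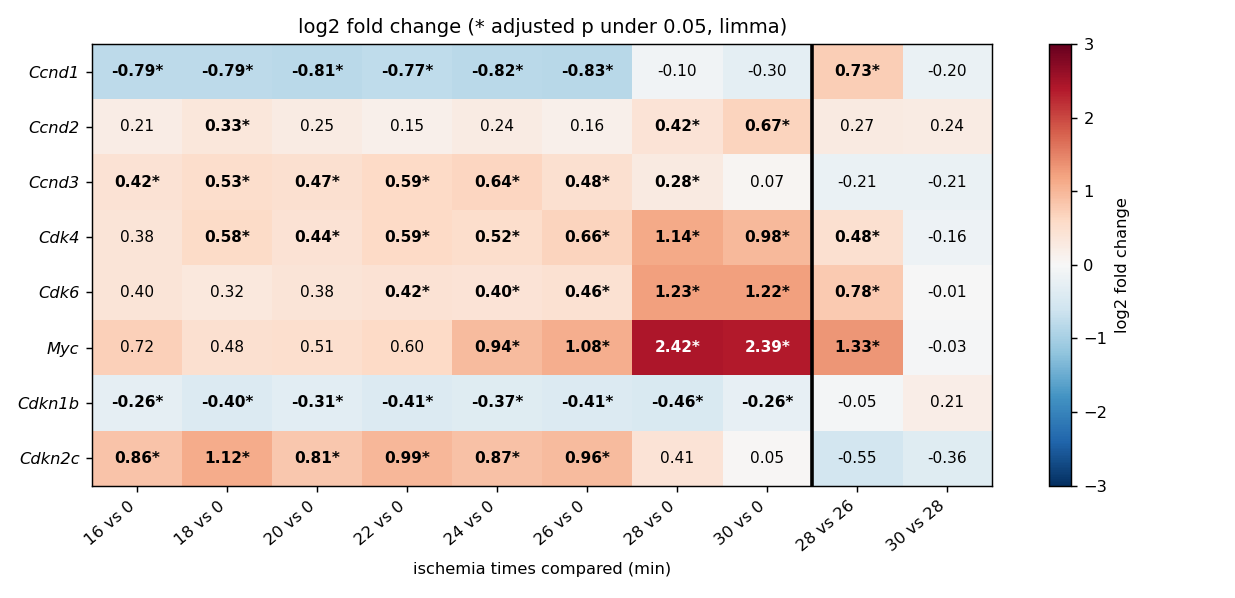
log2 fold change of each member (rows) for each ischemia time against 0 min, and for 28 against 26 min and 30 against 28 min (columns, right of the black line). Red is higher and blue lower in the first time named, and an asterisk marks an adjusted p under 0.05 in limma, which no member reached in the last column.

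Cyclin D1, encoded by Ccnd1 (chr7:144929931-144939831 in GRCm38.p6), is the D cyclin most often induced by growth signals in epithelium. Its level was 94.3, 99.8 and 137 FPKM in the 3 sham kidneys. In the 18 kidneys of the 16 to 26 min groups it ran from 48.9 to 82.0 FPKM with a median of 63.3 FPKM. At 28 min it measured 95.9, 103 and 111 FPKM, and at 30 min 86.1, 101 and 72.7 FPKM. Every kidney between 16 and 26 min was therefore below every sham kidney, while the 28 and 30 min kidneys overlapped the sham range. Separation of 3 kidneys from 3 is not particular to the members. Between 26 and 28 min, 20% of all tested genes were higher in every 28 min kidney than in every 26 min kidney. The share of genes separated from sham is not given here for any time.

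Ccnd1 fell at each of the 6 times from 16 to 26 min, by 0.77 to 0.83 on the log2 scale (SE 0.16, limma adjusted p from 0.000665 to 0.0022). The mean went from 110.5 ± 23.5 FPKM (SD, n = 3) at 0 min to 61.8 ± 3.35 FPKM (n = 3) at 26 min, a ratio of 0.559. At 28 min the difference from sham was -0.10 (SE 0.16, adjusted p = 0.654) and at 30 min -0.30 (adjusted p = 0.124), neither of which passed. In the order of means, the groups from 26 min (lowest) up to 22 min all overlapped their neighbours, a gap without overlap separated the 22 min group from the 30 min group, and the 30, 28 and 0 min groups overlapped again. The fall at 16 min was lost when only the 0 and 16 min kidneys were fitted (adjusted p = 0.13).

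These are whole-kidney libraries, in which fewer cells of a type and less RNA per cell cannot be told apart. The kidney label was borne out by its markers: 7 proximal tubule genes summed to between 4680 and 5149 FPKM at 0 min, and the loop of Henle, distal tubule, collecting duct and podocyte lists were all above 0. The same 7 genes summed to between 3044 and 4624 FPKM over the 16 to 26 min kidneys, to 1748 to 1993 FPKM at 28 min and to 1106 to 1255 FPKM at 30 min. Of the 7, 4 had fallen at 26 min, 5 at 28 min and 6 at 30 min against 0 min. Over all tested genes 30.1%, 48.2% and 52.3% changed in either direction at these times. Of 5 fibroblast and mural markers, 2 to 3 had risen at each time from 16 to 26 min, where 19% to 30.1% of all tested genes changed. The list summed to 34.9 to 38.7 FPKM at 0 min and to 73.2 to 178 FPKM over the kidneys of those times. From 0 to 26 min, Col1a1 went from 3.81 to 51.5 FPKM and Col3a1 from 4.78 to 55.6 FPKM. Over the same step Pdgfrb went from 6.53 to 14.35 FPKM, Pdgfra from 4.09 to 4.34 FPKM and Dcn down from 17.65 to 10.98 FPKM. The higher sum was thus mostly collagen and not a rise of the whole list. The part of either list in the member values was not tested.

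Cyclin D3, the product of Ccnd3 (chr17:47505051-47599689), changed in the direction opposite to Ccnd1. The sham kidneys measured 56.8, 52.9 and 55.5 FPKM. From 16 to 26 min the 18 kidneys ran from 61.1 to 97.2 FPKM (median 86.4 FPKM), all above sham. The levels were then 71.3, 72.0 and 69.3 FPKM at 28 min, and 60.3, 57.1 and 59.0 FPKM at 30 min. The 30 min kidneys lay below every 28 min kidney and just above every sham kidney.

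Ccnd3 rose at 7 of the 8 times. The log2 fold changes were 0.42, 0.53, 0.47, 0.59, 0.64 and 0.48 from 16 to 26 min (SE 0.10, adjusted p from 1e-04 to 0.0052), with the highest mean, 92.5 ± 4.91 FPKM (SD, n = 3), at 24 min. At 28 min it was 0.28 (adjusted p = 0.0238), and at 30 min 0.07 (adjusted p = 0.608). The 30 min FPKM did not overlap the sham FPKM in these kidneys, although the difference after quantile normalization did not pass. The 28 min call was lost when sham replicate 2 or 3, or 28 min replicate 1 or 2, was left out (adjusted p 0.0524 to 0.073), and the 16 min call was lost with only those groups fitted (adjusted p = 0.138).

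Cyclin D2, encoded by Ccnd2 (chr6:127125162-127152188), was the low member of the family. It measured 1.93, 2.10 and 2.64 FPKM at 0 min and ran from 2.56 to 4.33 FPKM over the 18 kidneys from 16 to 26 min. The 28 min kidneys held 3.32, 4.06 and 3.76 FPKM and the 30 min kidneys 5.65, 4.23 and 4.10 FPKM. Each of these 6 late kidneys was above all 3 sham kidneys, and the 30 min group did not overlap the 28 min group.

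Ccnd2 rose at 18 min (log2 fold change 0.33, SE 0.11, adjusted p = 0.0289), 28 min (0.42, adjusted p = 0.0035) and 30 min (0.67, adjusted p = 3.72e-05). At 30 min its mean was 2.10 times the sham mean. At the other 5 times the log2 fold change lay between 0.15 and 0.25 and did not pass. The 18 min call was lost without sham replicate 1 or 2, without 18 min replicate 3, or with only those groups fitted (adjusted p 0.0815 to 0.176). On the deposited FPKM scale without quantile normalization, the 16, 20 and 24 min differences passed as well (adjusted p 0.0108 to 0.0342 over that scale and FPKM rescaled to a constant sum), and at a constant sum the 26 min difference did too (0.0297).

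Because Ccnd1 and Ccnd3 moved in opposite directions, the make-up of the D cyclin transcripts was computed in each kidney as the share of each gene in the summed FPKM of the family. Ccnd1 made up 65.5% ± 4.41 (SD, n = 3) at 0 min, between 39.9% and 44.5% on average from 16 to 26 min, 58.0% ± 2.05 at 28 min and 57.5% ± 4.46 at 30 min. Ccnd3 made up 33.2% ± 4.45 at 0 min, 53.4% to 58.1% from 16 to 26 min, and 39.9% and 39.4% at 28 and 30 min. Ccnd3 was thus the larger share in the mean of each middle group, and Ccnd1 in the sham, 28 and 30 min groups. Single kidneys that stood apart were 16 min replicate 3 and 20 min replicate 3, with Ccnd1 shares of 56.2% and 50.3%.

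The Ccnd1 share was 23.1 percentage points lower at 26 min than at 0 min, and 15.6 points higher at 28 min than at 26 min, with no overlap between the 3 kidneys of either pair. An exact two-sided permutation test gave p = 0.1 for both, the smallest that 3 against 3 kidneys allow (Benjamini-Hochberg adjusted p = 0.138 over 40 share comparisons), so no share comparison could reach 0.05. Ccnd2 took 1.32% at 0 min, 1.89% to 2.28% from 16 to 26 min, 2.09% at 28 min and 3.11% at 30 min. The summed D cyclin level, a measure chosen after the values had been seen, was 167.8 ± 24.1 FPKM at 0 min, 145 to 159 FPKM in the means from 16 to 26 min, 177.8 ± 6.74 FPKM at 28 min and 150.2 ± 13.5 FPKM at 30 min. It overlapped between 26 and 0 min (exact p = 0.3) and did not overlap between 28 and 26 min (exact p = 0.1).

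**Figure D3:**
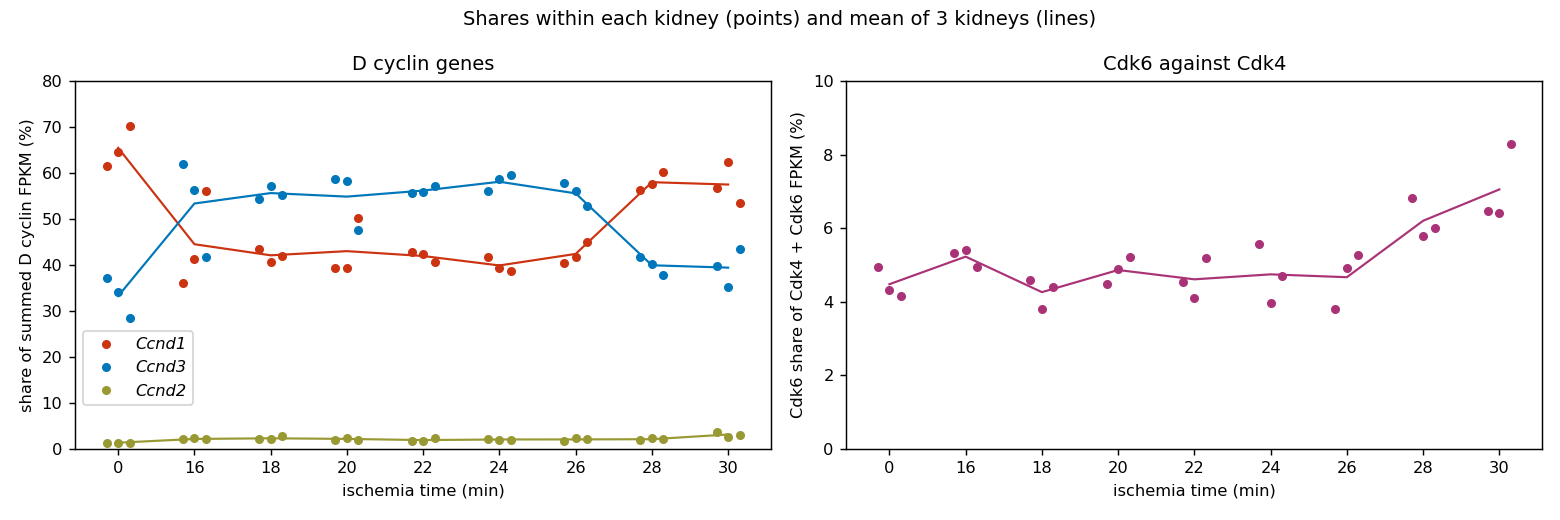
Left, share of each D cyclin gene in the summed D cyclin FPKM of a kidney (percent), and right, share of Cdk6 in the summed Cdk4 and Cdk6 FPKM (percent), against ischemia time in min. Points are kidneys and lines join means of 3. The Ccnd1 mean falls from 65.5% at 0 min to between 39.9% and 44.5% from 16 to 26 min and stands at 58.0% at 28 min, and the Cdk6 share is 4.67% at 26 min and 6.20% at 28 min.

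The kinases that D cyclins activate rose against sham at 26, 28 and 30 min and also rose between 26 and 28 min. Cdk4 (chr10:127063535-127067288) encodes CDK4. Its level was 48.1, 49.8 and 58.5 FPKM in the sham kidneys and ran from 52.4 to 93.7 FPKM over the 18 kidneys from 16 to 26 min. At 26 min it was 90.7, 84.3 and 85.5 FPKM, at 28 min 116, 120.4 and 123 FPKM, and at 30 min 123, 108 and 82.4 FPKM. The 3 kidneys at 28 min were above every kidney of the shorter times, and 1 of the 3 at 30 min lay below the 26 min group.

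Cdk4 did not pass at 16 min (log2 fold change 0.38, adjusted p = 0.0833) and rose at each of the 7 times from 18 min on. The log2 fold change was 0.66 at 26 min (SE 0.15, adjusted p = 0.00238), 1.14 at 28 min (adjusted p = 3.73e-06) and 0.98 at 30 min (adjusted p = 1.52e-05). The mean at 28 min, 120.0 ± 3.48 FPKM (SD, n = 3), was 2.30 times the sham mean of 52.1 ± 5.60 FPKM. Without 16 min replicate 3, at 52.4 FPKM the lowest of its group, the 16 min difference passed, as it did at a constant sum (adjusted p 0.00431 to 0.0309). The calls at 20 and 24 min were lost without sham replicate 1 or 2, and that at 20 min also without 20 min replicate 1 or 2 or with only those groups fitted (adjusted p 0.0502 to 0.153).

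Cdk6 (chr5:3341004-3531008) encodes CDK6, the close relative of CDK4. It measured 2.50, 2.25 and 2.54 FPKM at 0 min and ran from 2.73 to 5.34 FPKM from 16 to 26 min. At 28 min it was 8.51, 7.39 and 7.87 FPKM, and at 30 min 8.48, 7.41 and 7.43 FPKM. The 6 late kidneys were all above the other 21, and every ischemic kidney was above every sham kidney. How many of all genes separate in this way is not given here.

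From 16 to 20 min the Cdk6 difference did not pass (log2 fold changes 0.32 to 0.40, adjusted p 0.0528 to 0.096). The gene rose at 22, 24 and 26 min by 0.42, 0.40 and 0.46 (SE 0.14), and at 28 and 30 min by 1.23 and 1.22 (adjusted p = 6.19e-07 and 4.05e-07). The mean was 3.26 times sham at 28 min. The 22 min call was lost without any 1 sham kidney or 22 min replicate 3, the 24 min call without any 1 sham kidney or 24 min replicate 1 or 3, and the 26 min call without sham replicate 2 or 26 min replicate 2 or 3 (adjusted p 0.0516 to 0.176), while on the FPKM scale without quantile normalization the 16, 18 and 20 min differences also passed. The summed neutrophil markers, 5 genes, were 4.89 to 10.9 FPKM at 0 min, 3.32 to 9.48 FPKM over the 16 to 26 min kidneys, 12.8 to 17.9 FPKM at 28 min and 19.9 to 28.2 FPKM at 30 min. Against 0 min, of the 5 genes only S100a9 had risen at 28 min (2.83 to 6.17 FPKM) and Ly6g had fallen (0.383 to 0.0667 FPKM), while at 30 min S100a8, S100a9 and Retnlg had risen. Of all tested genes 24.5% rose at 28 min and 26.9% at 30 min. The neutrophil genes were not compared with other lists. Their part in the late Cdk4 and Cdk6 values was not tested.

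Cdk4 remained by far the larger of the 2 kinase transcripts. Cdk6 made up 4.48% ± 0.413 (SD, n = 3) of their summed FPKM at 0 min, 4.26% to 5.23% in the means from 16 to 26 min, 6.20% ± 0.545 at 28 min and 7.05% ± 1.06 at 30 min. The 28 min kidneys did not overlap the 26 min kidneys (difference 1.53 points, exact p = 0.1). The 2 kinases together, again a sum chosen after the values had been seen, went from 54.6 ± 5.67 FPKM at 0 min to 91.1 ± 2.88 FPKM at 26 min and 127.9 ± 3.14 FPKM at 28 min. Over the same 3 groups the summed D cyclin means were 167.8, 146.1 and 177.8 FPKM.

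The 250 bases before each annotated start were searched for CACGTG, the E-box that MYC and MAX bind. This search was chosen after the member values had been seen. RefSeq promoter entries for GRCm38.p6 covered 5 of the 8 members in 7 windows, and Ccnd1, Ccnd2 and Myc had none. The motif reads the same on both strands and was found in 2 of the 7 windows, those of Cdk4 and Cdk6, and in 6.02% of 32851 promoters. Cdk4 held 4 copies, at 172, 118, 98 and 11 bases before the start, and 0.0213% of promoters held as many. Cdk6 held 1, at 220 bases, inside the RefSeq span of the gene. The stretches show where the motif lies in these windows. Capitals mark CACGTG, and both read 5′ to 3′ on the plus strand.
Cdk4, chr10:127063285-127063533: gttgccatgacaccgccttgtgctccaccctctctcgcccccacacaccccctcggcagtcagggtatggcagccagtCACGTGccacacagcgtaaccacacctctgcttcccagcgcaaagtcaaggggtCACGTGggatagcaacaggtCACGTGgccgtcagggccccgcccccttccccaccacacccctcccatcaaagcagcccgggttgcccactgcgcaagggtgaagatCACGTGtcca
Cdk6, chr5:3343661-3343690: gttctgcggcccCACGTGggtgaacccccg
The E2F core TTNGCGC, searched on both strands, occurred once, 135 bases before the Cdk4 start and not overlapping an E-box, against 5.19% of promoters. The AP-1 site TGANTCA was in none of the 7 windows and in 6.75% of promoters. A match here is a description of the letters and does not show binding. Whether MYC acts on these genes was not tested.

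Myc (chr15:61985341-61990361) encodes the transcription factor MYC, whose transcript is normally short-lived. Its level was 5.16, 3.24 and 4.11 FPKM at 0 min. The 18 kidneys from 16 to 26 min ran from 5.19 to 20.6 FPKM with a median of 7.75 FPKM. At 26 min the values were 6.96, 8.84 and 20.6 FPKM, at 28 min 27.6, 28.9 and 32.4 FPKM, and at 30 min 32.9, 35.9 and 18.2 FPKM. In FPKM every ischemic kidney was above every sham kidney, the closest pair being 5.19 and 5.16 FPKM. After quantile normalization sham replicate 1 (2.73 on the log2 scale) was above 16 min replicate 3 (2.66) and 18 min replicate 2 (2.69). The 28 min group was above all kidneys of the shorter times. The highest kidney at 26 min (replicate 3) overlapped the lowest at 30 min (also replicate 3).

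Myc did not pass from 16 to 22 min (log2 fold changes 0.48 to 0.72, SE 0.33, adjusted p 0.131 to 0.298). It rose at 24 min (0.94, adjusted p = 0.0362), 26 min (1.08, adjusted p = 0.0161), 28 min (2.42, adjusted p = 4.82e-06) and 30 min (2.39, adjusted p = 3.72e-06). The means were 29.6 ± 2.52 FPKM at 28 min and 29.0 ± 9.49 FPKM at 30 min (SD, n = 3), 7.11 and 6.95 times the sham mean. The 26 min call was lost without 26 min replicate 3, without sham replicate 2 or with only those groups fitted (adjusted p 0.0673 to 0.126), and the 24 min call without sham replicate 2 or 3 or 24 min replicate 1 or 3 (0.0711 to 0.128). The 16 min difference passed without 16 min replicate 3 (adjusted p = 0.0395).

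Among the inhibitors, Cdkn2c (chr4:109660876-109666756), the INK4 gene for p18, resembled Ccnd3 in its course. It measured 6.06, 5.78 and 6.94 FPKM at 0 min, and from 7.99 to 20.6 FPKM (median 14.6 FPKM) over the 18 kidneys from 16 to 26 min. At 28 min it was 9.74, 9.73 and 9.17 FPKM, and at 30 min 8.39, 6.11 and 6.95 FPKM. All 18 middle kidneys were above sham, the 28 min group was below every 26 min kidney, and the 30 min group overlapped sham.

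Cdkn2c rose at each of the 6 times from 16 to 26 min, by 0.81 to 1.12 on the log2 scale (SE 0.25, adjusted p 0.0022 to 0.0229). At 18 min its mean was 16.2 ± 4.30 FPKM (SD, n = 3), against 6.26 ± 0.605 FPKM at 0 min. The difference from sham was 0.41 at 28 min (adjusted p = 0.188) and 0.05 at 30 min (adjusted p = 0.905). With only the 2 groups fitted, the 28 min difference passed (adjusted p = 0.00186). The 16 and 20 min calls were lost without sham replicate 1 or 2 or without 1 of 2 kidneys of their own group, 16 min replicate 2 or 3 and 20 min replicate 1 or 2, and that at 16 min also with only those groups fitted (adjusted p 0.051 to 0.152).

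Cdkn1b (chr6:134920401-134925525), the gene for p27, which holds resting cells out of the cycle, was lower after ischemia by a small amount. The sham kidneys measured 23.3, 22.5 and 20.9 FPKM, the 18 kidneys from 16 to 26 min 16.0 to 21.0 FPKM, the 28 min kidneys 17.9, 17.4 and 17.2 FPKM, and the 30 min kidneys 18.4, 19.1 and 21.9 FPKM. The groups at 16 and 30 min overlapped sham, and the other 6 did not.

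Cdkn1b fell at all 8 times, by 0.26 to 0.46 on the log2 scale (SE 0.08, adjusted p 7.44e-05 to 0.0255), and its mean at 28 min was 0.785 of sham. The falls at 16 and 30 min, both of 0.26, were lost on the FPKM scale without quantile normalization, at a constant sum, and with only those groups fitted. They were also lost without sham replicate 1 in both cases, without sham replicate 2 or 16 min replicate 1 or 2 for 16 min, and without 30 min replicate 1 for 30 min (adjusted p 0.0513 to 0.185).

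In the order of the 9 group means of FPKM, most neighbours overlapped. For Cdk4 and Cdkn1b all did. Cdk6 had a gap between 0 and 18 min and another between 26 and 30 min, and Myc had 1 between 0 and 18 min. The Myc gap was absent after quantile normalization. Ccnd3 was separated between 0 and 30 min and between 30 and 28 min, Cdkn2c between 30 and 28 min, and Ccnd2 between 28 and 30 min. How often such gaps occur over all genes is not given here.

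Within the ischemic kidneys the members were next compared between neighbouring times, which leaves out the shared sham kidneys. Along the 6 times from 16 to 26 min no member had a slope that passed in limma (0 of 8, with 0 at an unadjusted p under 0.05, and 0.011% of all genes called). The slope was 0.09 per 2 min for Myc (SE 0.06, adjusted p = 0.686) and -0.01 for Ccnd1 (SE 0.03, adjusted p = 0.977).

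Between 26 and 28 min, 4 of 8 members rose and none fell, where 19.3% of all tested genes changed and 10.8% rose. Myc rose by 1.33 (SE 0.33, adjusted p = 0.00708), Cdk6 by 0.78 (SE 0.14, adjusted p = 0.000773), Ccnd1 by 0.73 (SE 0.16, adjusted p = 0.0035) and Cdk4 by 0.48 (SE 0.15, adjusted p = 0.031). Myc was the only DEG among them, in a comparison where 1.5% of genes were. In these 4 genes and in Ccnd2 each of the 3 kidneys at 28 min was above each at 26 min, a separation that 20% of all genes showed. Cdkn2c went the other way, with a log2 fold change of -0.55 that did not pass (adjusted p = 0.13) although its groups did not overlap, and Ccnd3 (-0.21), Ccnd2 (0.27) and Cdkn1b (-0.05) did not pass either. With only these 2 groups fitted, Ccnd2 passed as well (adjusted p = 0.0389), which made 5 of 8.

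The Cdk4 step was lost when any 1 of the 6 kidneys was left out (adjusted p 0.0635 to 0.0874), and the Myc step without 26 min replicate 1 (adjusted p = 0.0504), while those of Ccnd1 and Cdk6 passed in each case. Between the same times the proximal tubule markers fell in 6 of 7 genes and the neutrophil markers rose in 3 of 5. Of all tested genes 19.3% changed and 10.8% rose. The macrophage list passed in 0 of 7 genes in limma (1 at an unadjusted p under 0.05), its sum being 66.7 to 78.6 FPKM at 26 min and 61.2 to 73.1 FPKM at 28 min. The fibroblast and mural list, 5 genes, summed to 113 to 156 FPKM at 26 min and 66.9 to 104 FPKM at 28 min. T cell markers (5 genes) summed to at most 0.84 FPKM and B cell markers (4 genes) to at most 0.9 FPKM at 28 min. The part of these cells in the member values was not tested.

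Between 28 and 30 min none of the 8 members passed in limma, with 3 at an unadjusted p under 0.05 (Ccnd2 at 0.24, Ccnd3 at -0.21 and Cdkn1b at 0.21), where 13.2% of all genes changed. The SD of Myc was 2.52 FPKM at 28 min and 9.49 FPKM at 30 min. Replicate 3 at 30 min held the lowest Ccnd1, Cdk4 and Myc of its group and the highest Cdkn1b. That kidney also held a summed loop of Henle level of 2176 FPKM, against 502 and 498 FPKM in the other kidneys of the group. Its collecting duct sum was 591 FPKM against 233 and 249.5 FPKM, and its macrophage sum 117 FPKM against 65.6 and 70.2 FPKM. The distal tubule, podocyte, endothelium and fibroblast and mural sums were highest there too. Its proximal tubule, neutrophil and T cell sums were the lowest of the group. Without 30 min replicate 1 Cdkn1b passed as higher at 30 than at 28 min (adjusted p = 0.0412).

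The partners and inhibitors around the members form a list of 11 genes. At 26 min 3 of them had risen and 2 had fallen against sham, at 28 min 5 and 1, and at 30 min 4 and 1. Over all tested genes 14.9% had risen at 26 min, 24.5% at 28 min and 26.9% at 30 min. The median log2 fold change of the list was 0.29 at 28 min, against 0.00 over all tested genes.

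Of the other INK4 genes, Cdkn2a (p16 and p19ARF) had mean levels of 0.027, 0, 0.02 and 0.0233 FPKM at 0, 26, 28 and 30 min and gives no usable value. Cdkn2b (p15) was low and fell at 26 min only, from 2.01 to 0.87 FPKM (-0.86, SE 0.22, adjusted p = 0.00571). The 26 min kidneys, at 0.30 to 1.61 FPKM, overlapped the sham kidneys, at 1.45 to 2.34 FPKM. At 30 min the Cdkn2b mean was 2.58 FPKM (adjusted p = 0.67 against sham). Cdkn2d (p19INK4d) rose from 18 to 24 min and then fell from 7.31 FPKM at 26 min to 5.14 FPKM at 28 min (-0.43, SE 0.12, adjusted p = 0.0213).

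The other CIP/KIP genes were higher, not lower, at the longest times. Cdkn1a (p21), which many stress signals induce, did not pass from 16 to 26 min, and rose to 46.7 FPKM at 28 min and 85.7 FPKM at 30 min from a sham mean of 8.18 FPKM (2.26 and 3.17, SE 0.38, adjusted p = 5.6e-05 and 7.17e-07). Its rise from 26 to 28 min was 1.44 (adjusted p = 0.0117). Cdkn1c (p57) had means of 13.8, 29.3 and 34.4 FPKM at 0, 28 and 30 min and rose at both of these late times (0.91 and 1.18, SE 0.20) and at 18 min. At 28 and 30 min the kidneys thus held higher Cdk4, Cdk6 and Myc together with higher Cdkn1a and Cdkn1c, and lower Cdkn1b.

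Cyclin E and CDK2 act after the D cyclins. Ccne1 rose at all 8 times, from a sham mean of 0.38 FPKM to 4.69 FPKM at 26 min, 5.39 FPKM at 28 min and 2.10 FPKM at 30 min. Ccne2 rose from 18 to 28 min and had means of 0.657, 4.48 and 1.33 FPKM at 0, 28 and 30 min. Both fell between 28 and 30 min (-1.06, SE 0.33, adjusted p = 0.0359 and -1.25, SE 0.27, adjusted p = 0.00592). Cdk2 rose at all 8 times, with means of 5.76, 12.4, 15.8 and 12.9 FPKM at 0, 26, 28 and 30 min.

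The retinoblastoma family, which the D cyclin kinases phosphorylate, was uneven. Rb1 passed at no time, with means of 10.3, 12.3, 10.8 and 10.5 FPKM at 0, 26, 28 and 30 min. Rbl2 (p130), the member bound to E2F in resting cells, fell from 18 min on, from 16.9 FPKM at 0 min to 9.47 FPKM at 28 min (-0.90, SE 0.12, adjusted p = 3.81e-06). Rbl1 (p107) passed at no time against sham and fell between 28 and 30 min, from 7.07 to 4.30 FPKM (-0.60, SE 0.17, adjusted p = 0.0231).

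**Figure D4:**
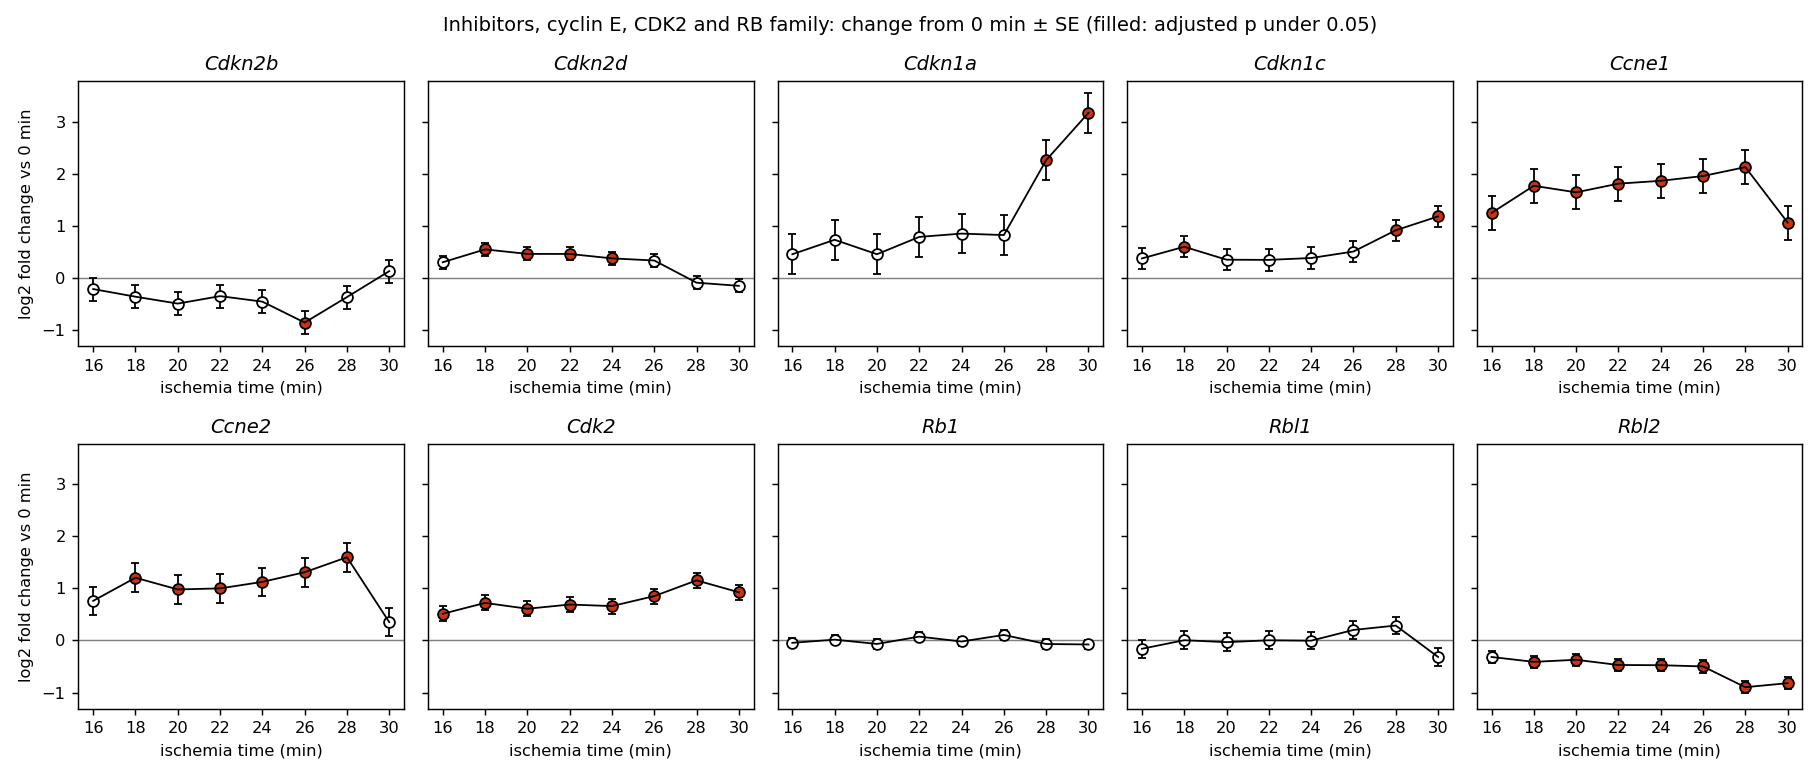
log2 fold change against 0 min (vertical axis, ± SE from limma) at each ischemia time (horizontal axis, min) for 10 partners and inhibitors of the members. Filled points passed an adjusted p of 0.05. Cdkn1a stands at 2.26 at 28 min and 3.17 at 30 min, Ccne1 and Ccne2 are lower at 30 than at 28 min, Rb1 stays near 0 and Rbl2 lies below 0 throughout.

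The list of E2F and DP factors held 10 genes. At 28 min 8 had risen and 2 had fallen, where 24.5% of all tested genes rose and 48.2% changed, and between 28 and 30 min 6 fell and none rose, where 6.77% of all genes fell. At 30 min 3 had risen and 2 had fallen against sham, where 26.9% of all tested genes rose and 52.3% changed. The rises were those of E2f4 (20.7 to 48.6 FPKM, 1.15), E2f3 (1.87 to 3.59 FPKM, 0.54) and Tfdp1 (13.6 to 21.7 FPKM, 0.52). Tfdp2 (8.43 to 4.11 FPKM) and E2f5 (20.7 to 18.6 FPKM) fell.

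Of 20 E2F target genes, which serve DNA replication and mitosis, 12 had risen at 16 min, 19 at each time from 18 to 28 min and 8 at 30 min. At 30 min 1 had fallen. The share of all tested genes that changed was 19% at 16 min and 22.8% to 30.1% from 18 to 26 min. It was 48.2% at 28 min (24.5% rose) and 52.3% at 30 min (26.9% rose). Rrm2, a subunit of ribonucleotide reductase, had means of 3.32, 35.5, 33.8 and 12.5 FPKM at 0, 26, 28 and 30 min. Mcm3 and Mcm4, of the replicative helicase, rose to 29.7 and 22.0 FPKM at 28 min from 3.86 and 4.02 FPKM, and were at 10.9 and 10.6 FPKM at 30 min. None of the 20 passed in limma between 26 and 28 min (1 at an unadjusted p under 0.05), when Cdk4, Cdk6, Ccnd1 and Myc rose. The list's means moved both ways over that step, with a median log2 fold change of 0.10. Named after their values had been seen, Mcm2 (22.7 to 33.1 FPKM) and Cdt1 (16.3 to 25.9 FPKM) went up. Mki67 (7.81 to 3.51 FPKM) and Ccna2 (10.9 to 6.65 FPKM) went down. Of the 20, 17 fell between 28 and 30 min, when no member passed and 6.77% of all genes fell. The median of the list for 30 against 28 min was -1.05, against 0.00 over all genes.

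Of 20 MYC target genes, mostly of ribosome production, 11 had risen at each of 16, 18 and 20 min, and 12, 13 and 14 at the next 3 times. In the 28 min group 18 had risen and in the 30 min group 16, and Shmt2 had fallen at both late times. Of all tested genes, 19% to 28.8% changed in either direction from 16 to 24 min. At 26, 28 and 30 min 14.9%, 24.5% and 26.9% of all tested genes rose. Between 26 and 28 min 16 rose, against 10.8% of all genes, and Shmt2 fell, and between 28 and 30 min none rose and 2 fell. Srm (spermidine synthase) had means of 16.0, 30.6, 53.7 and 49.0 FPKM at 0, 26, 28 and 30 min. Nop58, a nucleolar protein, went from 11.7 to 22.5, 43.4 and 34.6 FPKM over the same times, and Eif4a1, a translation initiation factor, from 134.8 to 202, 297 and 306 FPKM. The list's median log2 fold change was 0.56 between 26 and 28 min, where Myc itself stood at 1.33.

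**Figure D5:**
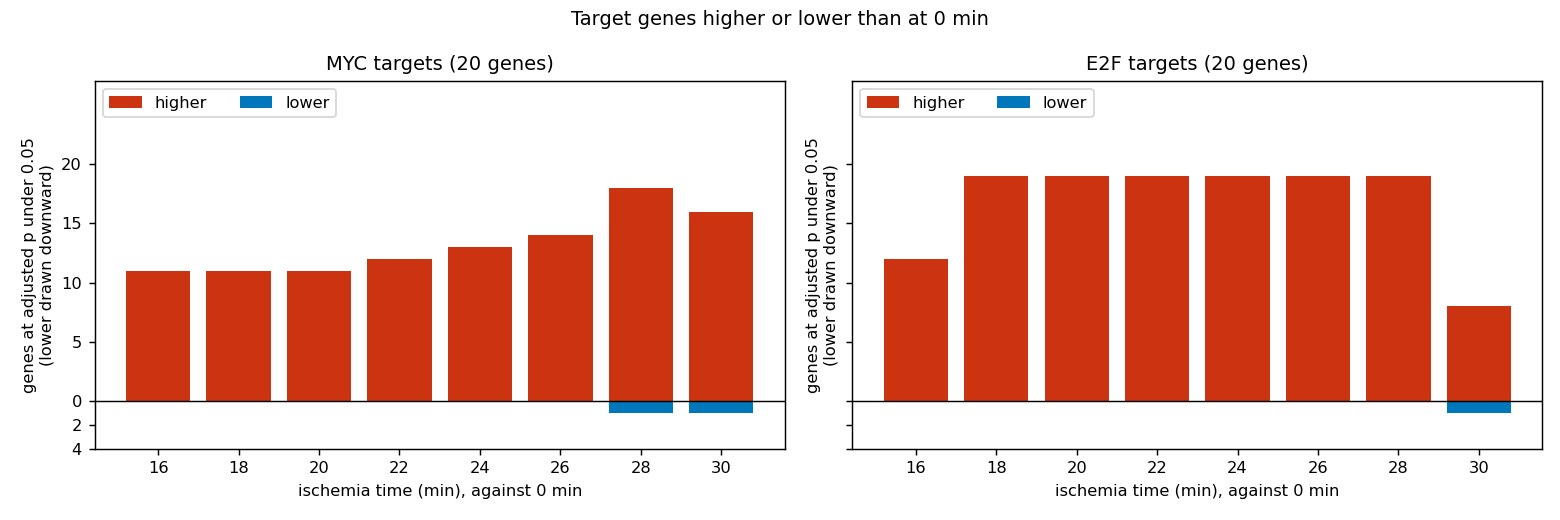
Number of genes, of 20 in each list, that were higher (red, upward) or lower (blue, downward) than at 0 min at an adjusted p under 0.05 in limma, against ischemia time in min. MYC targets go from 11 higher at 16 min to 18 at 28 min, and E2F targets stay at 19 from 18 to 28 min and stand at 8 at 30 min. Of all tested genes, 24.5% were higher at 28 min and 26.9% at 30 min.

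MYC acts as a dimer with MAX, which it shares with rival proteins. Of 14 genes of the MYC network, 1 had risen and 4 had fallen at 26 min, 1 and 2 at 28 min, and 2 and 4 at 30 min. Over all tested genes 30.1%, 48.2% and 52.3% changed at these times, so the list was not above the background at 28 or 30 min. Mxi1 and Mxd1, which compete with MYC for MAX, were lower at 30 min than at 0 min (34.4 to 23.4 FPKM, -0.62 and 3.66 to 2.65 FPKM, -0.45), as was Mlxipl (57.0 to 37.4 FPKM, -0.62). Mlxip (0.43) and Zbtb17 (0.37) rose. Mxd3, named after its values had been seen, rose from 0.78 FPKM at 0 min to 5.87 FPKM at 26 min and fell to 2.17 FPKM at 28 min (-1.01, SE 0.32, adjusted p = 0.0316), and Max was 28.6, 23.1 and 28.2 FPKM at the same times.

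Of 16 symbols listed for CDK activation and for the turnover of cell cycle proteins such as D cyclins and p27, 15 were in the expression table. The symbol Skp1a was absent, and Skp1 was present. At 28 min 8 had risen and 3 had fallen, where 48.2% of all tested genes changed and 24.5% rose, and at 30 min 6 and 3, where 52.3% changed and 26.9% rose. Cks1b, a cofactor in p27 degradation, had means of 3.74, 13.6, 20.1 and 12.8 FPKM at 0, 26, 28 and 30 min (1.44 at 30 min, adjusted p = 7.48e-05). Mnat1 (0.46) and Fbxw7 (0.46) also rose at 30 min, while Skp1 (-0.39), Ambra1 (-0.33), which targets D cyclins for degradation, and Cdk7 (-0.25) fell.

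Finally, the genes whose 9 time means were most like those of each member were found by Pearson r of quantile-normalized log2(FPKM + 1) over 12345 genes with a mean of at least 1 FPKM. With 9 points and so many genes, high values are found for any gene, and they are given as a description. For Cdk4 they were Rpl27 (r = 0.997), Rpl15 (0.995) and Rpl27a (0.994), ribosomal protein genes, which have near-identical copies in the genome that make their own values uncertain. For Cdk6 they were Bysl (0.998) and Nat10 (0.995), which act in ribosome production, and Rpl24 (0.994), and for Myc Heatr5a (0.997), Abce1 (0.997) and Exosc9 (0.996). Cdkn2c was most like Kif20a (0.995), Cdc20 (0.995) and Ckap2l (0.994), genes of mitosis, and Ccnd3 most like Ankle1 (0.982), Ndc1 (0.978) and Troap (0.977). For Ccnd2 they were Mfsd5, Krtcap3 and Pdlim1 (0.984, 0.978 and 0.978), and for Cdkn1b Glt28d2, Macf1 and Dstyk (0.987, 0.980 and 0.976). Ccnd1 had the weakest match, with Klhl15 at 0.955, Dcp1a at 0.954 and Ripk2 at 0.951.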

How the data were processed

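RNA from 27 left kidneys was sequenced on a DNBSEQ-G400 instrument. The authors deposited 1 table of FPKM values for 19392 genes, and their notes name Bowtie2, RSEM, DESeq2 and the build GRCm38.p6. Versions, gene annotation and strand setting were not given in the sources used here. FPKM carries no read counts, so no count test was run and depth is unknown. Groups came from the sample titles. limma 3.58.1 in R 4.3.3 was fitted to log2(FPKM + 1), quantile normalized between kidneys, with 1 mean per ischemia time, over 18188 genes above 0 FPKM in at least 3 kidneys. Contrasts were each time against 0 min, 28 against 26 min, 30 against 28 min, and the slope from 16 to 26 min, with Benjamini-Hochberg adjustment within each. Shares were compared by exact two-sided permutation tests (scipy 1.17.1). The scripts were tested on simulated data. Alternatives were a pseudocount of 0.1 FPKM, no filter or 1 FPKM in 3 kidneys, no quantile normalization, rescaling to a constant sum, a variance trend, fitting only the groups compared, a replicate block, and leaving out each kidney.

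The labels give 3 mice per time. They do not say whether operations, extractions or libraries were done in batches. The members and gene lists were chosen with earlier results of these data known. From the lists, all partners and inhibitors were named, and elsewhere up to 3 genes with the largest significant rise and fall at 30 against 0 min. A gene that this rule names is not reported here. Marker genes given by name were chosen after their values were seen. Positions and promoters are from RefSeq, GRCm38.p6. The Cdk4 stretch leaves out the last base before the start, which lies in an annotated exon.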

Additional observations from a re-analysis of the deposited data

Results flagged for a closer look

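Ccnd1, Cdk4, Cdk6 and Myc differed between the neighbouring ischemia times of 26 and 28 min by the limma test of the difference itself. On the log2(FPKM + 1) scale the difference was 1.33 for Myc, 0.78 for Cdk6, 0.73 for Ccnd1 and 0.48 for Cdk4, each higher at 28 min in 3 of 3 kidneys. Of all tested genes 20% were separated in that direction. For Ccnd1 the step went from below sham back into the sham range, while Cdk4, Cdk6 and Myc, already above sham at 26 min, went further from it. Groups of 3 kidneys are too small to judge whether a single kidney is an outlier. With 1 kidney of these groups left out, the Cdk4 call was lost each time, and the Myc call was lost without 26 min replicate 1.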

How the results depend on the processing

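No call on a member changed direction under any alternative. Of 64 comparisons with 0 min, 46 passed, and leaving out 1 kidney gave 34 to 50. For 28 against 26 min 4 of 8 passed, and 2 to 3 with a kidney left out, the Cdk4 call being lost each time. Fitting only these 2 groups gave 5 of 8. For 30 against 28 min the range was 0 to 1, and for the slope 0 to 0. The Ccnd1 share difference ranged from -25.0 to -20.7 points for 26 against 0 min, and from 14.5 to 16.9 points for 28 against 26 min. The other settings gave 41 (only the groups compared) to 52 (constant sum) of 64. The causes were not tested. Equal replicate numbers did not pair the kidneys (median r of deviations -0.01 for equal and for unequal numbers), and the fit with a replicate block gave 46 of 64 and 4 of 8. Depth is unknown, so counting error could not be given for any gene.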
